A study of Mus musculus with 2 samples.

Results

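The genes described here are 50 mouse genes that encode Polycomb proteins, enzymes that write or erase methyl and acetyl groups on histones and DNA, ATP-driven chromatin remodelers and the looping factor CTCF. They were fixed by name and make up 50 of the 21887 protein-coding genes analysed. For each one, the accessible regions within the gene body and 10 kb on either side were collected from both peak lists of the series, and a peak within 1 kb of either annotated end of the gene was called a gene-end peak. The assay was ATAC-seq, which uses a transposase to cut and tag open DNA, and the material was mouse prostate tumor cells (strain C57BL/6) from a study of progression toward neuroendocrine prostate cancer (NEPC). M6 is the late-stage library, from cells that received tamoxifen for 6 months, and W2 the early-stage library, from cells that received tamoxifen for 2 weeks. Both groups thus carry the tamoxifen treatment, and no untreated group is analysed here. The sources used here give neither the engineered alleles nor whether cells were cultured or taken from tumors. With 1 library per time point, differences have no replicate check and none was tested. Intervals are exact 95% intervals and cover counting error only.

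Polycomb repressive complex 2 (PRC2) methylates histone H3 at genes that are to stay silent, and PRC1 binds that mark and adds ubiquitin to histone H2A. DNA methyltransferases and TET enzymes add and oxidise methyl groups on cytosine, while SWI/SNF and CHD enzymes slide or evict nucleosomes. In the prostate, EZH2 and the loss of the neuronal repressor REST are well known in connection with neuroendocrine tumors. A peak at the start of such a gene reports open DNA there, not the amount of protein or the activity of the complex, and in bulk material a stronger opening in each cell and an opening in more of the cells cannot be told apart.

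Start regions of 5 members are printed because they carry the main contrasts: a start open in both libraries (Ezh2), the highest ratio of M6 over W2 tags among shared starts (Cbx8), the one shared start with fewer tags in M6 (Smarca2), and genes whose M6 peak lay at a start inside the annotated gene (Dnmt1 and Kdm6a). Each is RefSeq sequence of GRCm38.p6, the assembly that mm10 names, read 5′ to 3′ on the strand of the gene, from 250 bp before to 50 bp after the listed start. Capitals mark matches on either strand to 6 short motifs: GGGCGG of SP and KLF factors, CCGGAAG of ETS factors, CCAAT of NFY, TGACGTC of CREB-type factors, TTGGCGC of E2F and TGANTCA of AP-1. Matches may overlap, as in the palindrome of Cbx8 that reads as the CREB-type motif on both strands. The regions are chr6:47594981-47595280 for Ezh2 (minus strand), chr11:119040864-119041163 for Cbx8 (minus), chr19:26604910-26605209 for Smarca2 (plus), chr9:20959839-20960138 for the outer and chr9:20952574-20952873 for the inner start of Dnmt1 (minus), and chrX:18162325-18162624 for Kdm6a (plus).
Ezh2: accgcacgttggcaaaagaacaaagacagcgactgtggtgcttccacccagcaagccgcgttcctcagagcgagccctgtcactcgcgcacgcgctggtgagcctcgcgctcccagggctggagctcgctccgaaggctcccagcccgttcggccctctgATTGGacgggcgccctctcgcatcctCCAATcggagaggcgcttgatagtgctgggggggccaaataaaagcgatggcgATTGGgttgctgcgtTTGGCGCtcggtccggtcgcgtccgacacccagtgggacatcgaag
Cbx8: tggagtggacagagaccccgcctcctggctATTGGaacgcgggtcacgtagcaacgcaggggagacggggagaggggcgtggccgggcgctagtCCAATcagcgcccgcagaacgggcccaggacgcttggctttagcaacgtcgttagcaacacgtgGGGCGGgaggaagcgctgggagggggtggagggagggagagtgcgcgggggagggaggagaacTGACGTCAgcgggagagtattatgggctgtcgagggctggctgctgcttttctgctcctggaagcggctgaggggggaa
Smarca2: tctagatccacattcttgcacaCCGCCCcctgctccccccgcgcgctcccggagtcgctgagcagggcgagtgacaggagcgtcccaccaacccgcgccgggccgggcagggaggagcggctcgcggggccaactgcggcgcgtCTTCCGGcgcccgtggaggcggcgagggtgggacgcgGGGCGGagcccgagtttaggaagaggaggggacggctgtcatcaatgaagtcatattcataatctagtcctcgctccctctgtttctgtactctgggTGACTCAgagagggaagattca
Dnmt1, outer start: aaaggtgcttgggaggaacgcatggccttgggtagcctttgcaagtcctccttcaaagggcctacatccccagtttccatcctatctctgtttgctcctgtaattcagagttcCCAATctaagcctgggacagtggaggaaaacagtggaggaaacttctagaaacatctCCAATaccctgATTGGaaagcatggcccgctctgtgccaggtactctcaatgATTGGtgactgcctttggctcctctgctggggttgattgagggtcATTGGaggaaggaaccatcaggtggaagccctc
Dnmt1, inner start: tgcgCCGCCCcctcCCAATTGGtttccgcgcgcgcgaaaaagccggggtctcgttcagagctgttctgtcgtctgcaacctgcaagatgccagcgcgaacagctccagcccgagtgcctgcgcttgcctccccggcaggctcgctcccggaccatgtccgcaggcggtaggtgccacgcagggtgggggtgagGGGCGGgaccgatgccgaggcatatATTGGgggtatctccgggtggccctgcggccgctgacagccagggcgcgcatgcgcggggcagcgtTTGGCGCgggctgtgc
Kdm6a: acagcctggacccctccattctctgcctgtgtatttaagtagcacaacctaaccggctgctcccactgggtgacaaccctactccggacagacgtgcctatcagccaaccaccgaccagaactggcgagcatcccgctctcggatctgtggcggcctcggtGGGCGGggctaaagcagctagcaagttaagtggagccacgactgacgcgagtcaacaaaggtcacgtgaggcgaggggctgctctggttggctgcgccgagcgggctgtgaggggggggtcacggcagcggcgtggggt

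The M6 list held 22570 peaks on chromosomes 1 to 19, X and Y, and the W2 list 5735. The sources used here state no read depth. The number of tags stacked at each summit (the pileup) and the local background could be recovered from the deposited statistics for 100% of the peaks: pileups began at 10 tags in M6 and 12 in W2, with a median of 21 in both, and the lowest background was 2.65 tags in M6 and 2.96 in W2, a ratio of 0.895. A gene without a peak is therefore one without a region past these limits, not one shown to be closed. Of 8 luminal prostate markers, 5 had a gene-end peak in M6 (Krt8, Cdh1, Epcam, Cldn3 and Cldn7) and 3 in W2 (Cdh1, Epcam and Cldn3). Neuroendocrine markers had 2 of 6 in M6 (Ncam1 and Syt1) and 0 in W2, and leukocyte markers 1 of 5 (Coro1a) in M6 and 0 in W2. The 3 basal, 4 fibroblast, 3 endothelial and 2 smooth muscle markers had none in either library.

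Gene-end peaks were found at 30 of the 50 members in M6 (60.0%, 45.2 to 73.6%) and at 11 in W2 (22.0%, 11.5 to 36.0%). Among all protein-coding genes the shares were 39.7% in M6 and 18.4% in W2. No member had one in W2 without one in M6: 11 members had a peak in both libraries (background 17.8%), 19 in M6 only (38.0%, 24.7 to 52.8%; background 21.9%), 0 in W2 only (background 0.649%) and 20 in neither (background 59.7%). This direction turned when each list was held to its 5735 peaks of highest −log10 q. That cut is uneven: it kept M6 peaks with a value of at least 10.8 and W2 peaks down to 1.47. Under it, 7 members had a gene-end peak in M6 (Cbx8, Rcor1, Kmt2d, Asxl1, Hdac1, Smarcc1 and Setd2) and 11 in W2. All genes also turned, with 16.5% in M6 and 18.4% in W2. A common limit, a −log10 q of at least 5, did not turn the direction, with 24 members in M6 and 8 in W2 (background 32.8% in M6 and 14.3% in W2). Nor did window size: 26 members in M6 and 10 in W2 had a peak within 500 bp (background 37.0% in M6 and 17.3% in W2), and 35 in M6 and 15 in W2 within 2.5 kb (44.3% and 20.6%).

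**Figure D1:**
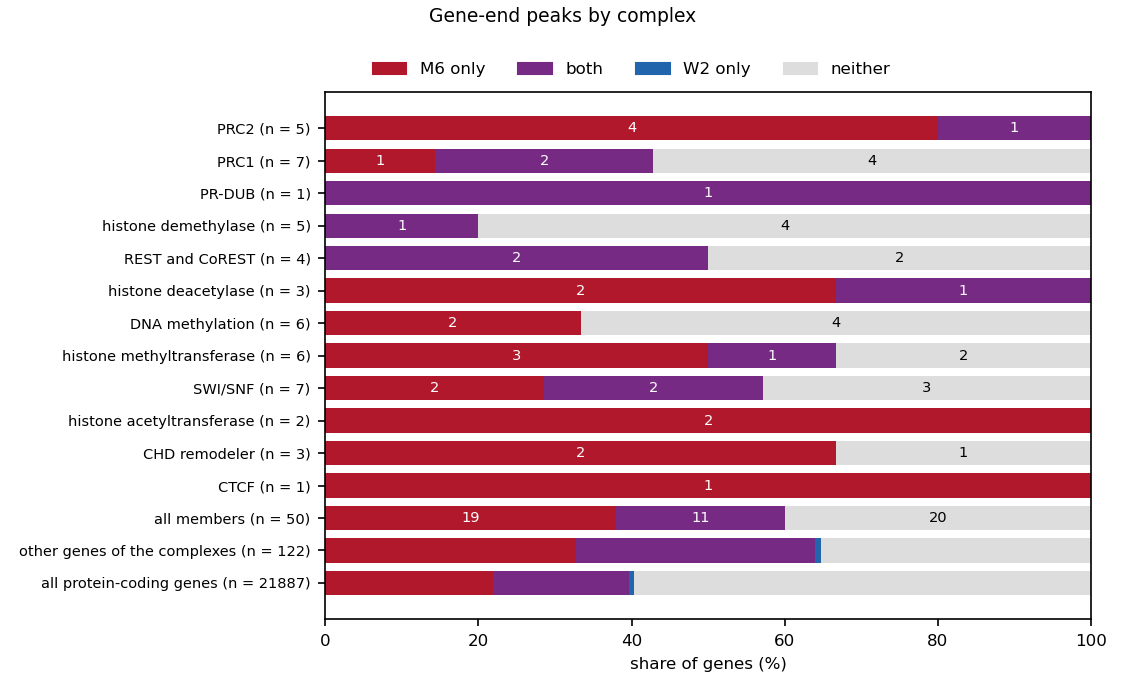
Share of genes (%) whose ends held a peak in M6 only, in both libraries, in W2 only or in neither, for the members by complex, for all 50 members, for 122 other genes of the same complexes and for all 21887 protein-coding genes; numbers in the bars count members. All 5 PRC2 members had an M6 gene-end peak (background 39.7%). Of the 6 DNA methylation members, 4 had none in either library (background 59.7%), among them Dnmt1, with an M6 peak at a listed start inside the gene.

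By complex, M6-only members numbered 4 of 5 in PRC2, 3 of 6 among the histone methyltransferases, 2 of 3 among the histone deacetylases, 2 of 2 among the acetyltransferases and 2 of 3 among the CHD remodelers. They numbered 2 of 7 in SWI/SNF, 2 of 6 in DNA methylation, 1 of 7 in PRC1 and 1 of 1 for CTCF. None was M6-only among PR-DUB, the histone demethylases and the REST and CoREST genes. Over all protein-coding genes the M6-only share was 21.9%. Groups this small give wide intervals: 80.0% of PRC2 members M6-only has an interval of 28.4 to 99.5%. With equal numbers of peaks, PRC2, PRC1, SWI/SNF, the histone demethylases and the REST and CoREST genes each had 1 member fewer in M6 than in W2, the histone methyltransferases had 1 more, and the other 6 groups had as many in M6 as in W2.

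A gene-end peak was present at all 5 PRC2 members in M6 (background 39.7%) and at 1, Ezh2, in W2 (background 18.4%). Ezh2, the main catalytic subunit, carried 21 tags in M6 and 18 tags in W2 at its start, with a −log10 q of 7.10 in M6 and 5.36 in W2. The ratio of 1.17 (0.592 to 2.32) was within counting error of equal tags. A second, weaker M6 peak of 14 tags lay 0.928 kb from the same end, without a W2 counterpart. Ezh1, the alternative catalytic subunit, had 22 tags in M6 (−log10 q 9.06) with the summit 0.007 kb from its start, and no W2 peak at its locus. Suz12, the scaffold subunit, had 21 tags (−log10 q 8.72) in M6 alone. Eed, which reads the methyl mark, had a pair of M6 peaks of 19 tags each on either side of its start. Jarid2, an accessory subunit that helps to recruit the complex, had 23 tags at its start and 3 further M6 peaks inside the gene, the strongest with a −log10 q of 11.9, and none of them overlapped a W2 peak. The PRC2 genes other than Ezh2 were thus open at a gene end in the M6 list alone, with pileups of 19 to 23 tags, close to the M6 median of 21.

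In PRC1, 3 of 7 members had a gene-end peak in M6 (background 39.7%) and 2 in W2 (background 18.4%). Cbx8, a chromodomain subunit that binds the PRC2 mark, had 50 tags in M6 and 20 tags in W2, a ratio of 2.5 (1.46 to 4.43), the highest of the shared members. Its −log10 q was 26.0 in M6 and 5.21 in W2, and the peak was 671 bp wide in M6 and 249 bp in W2. Pcgf2, a RING-finger partner of the ubiquitin ligase, had 30 tags in M6 and 22 tags in W2, a ratio of 1.36 (0.761 to 2.48). That peak lay 0.768 kb (M6) and 0.912 kb (W2) from the outer annotated end of Pcgf2, and it was also at an end of Psmb3, a proteasome gene. The listed start of Pcgf2, 3554 bp from the M6 summit and 3698 bp from the W2 summit, had no peak within 1 kb. Rnf2, the main ubiquitin ligase, had 26 tags in M6 (−log10 q 9.62) and no W2 peak. Cbx2, Cbx7, Ring1 and Bmi1 were without a gene-end peak in M6 and in W2. Cbx2 lies beside Cbx8 on chromosome 11, and the Cbx8 start peak, 9.80 kb from Cbx2, was the only peak at its locus in each library. Ring1, the other ligase, had 2 M6 peaks and 1 W2 peak in its flank, all at ends of Slc39a7 and its neighbours. Bmi1, a partner of both ligases, had 3 M6 flank peaks and 1 W2 flank peak, at ends of Commd3 and Spag6. Cbx7, another chromodomain subunit, had 2 M6 peaks inside the gene and none in W2. Asxl1, the cofactor of the PR-DUB deubiquitinase that removes the PRC1 mark, had 32 tags in M6 and 19 tags in W2, a ratio of 1.68 (0.926 to 3.14).

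**Figure D2:**
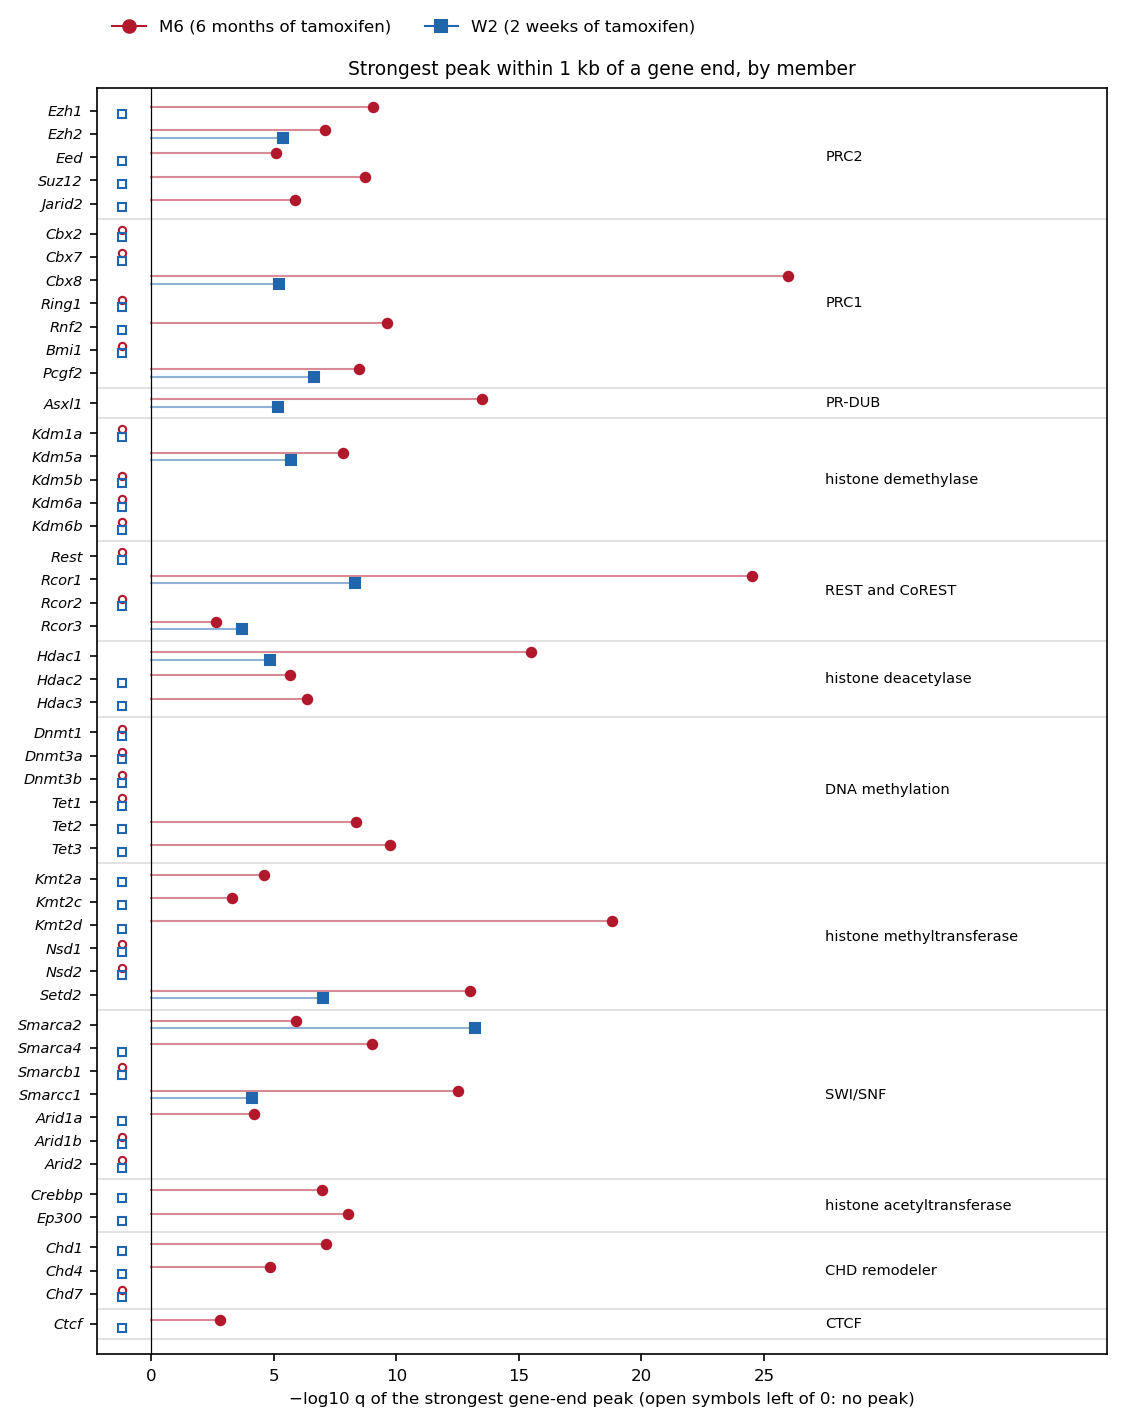
The −log10 q of the strongest gene-end peak of each of the 50 members, grouped by complex, with M6 as red circles and W2 as blue squares; open symbols left of 0 mark members with no gene-end peak in that library. Cbx8 (26.0) and Rcor1 (24.5) had the highest M6 values, and Smarca2 (13.2) the highest W2 value.

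Among the enzymes that remove methyl groups from histones, only Kdm5a of the 5 members had a gene-end peak, and it had one in both libraries. Over all genes, 39.7% had one in M6 and 18.4% in W2. Kdm5a, which acts on the active promoter mark, had 21 tags in M6 and 19 tags in W2, a ratio of 1.11 (0.566 to 2.17). The peak was also at an end of Ccdc77. Kdm1a, the LSD1 demethylase of the CoREST complex, had 1 M6 peak inside the gene (−log10 q 3.78) and none in W2. Kdm5b, a paralog of Kdm5a, had 1 flank peak in each library, 3.25 kb (M6) and 3.14 kb (W2) from its start, with 21 tags in both. Kdm6a and Kdm6b remove the PRC2 mark. Kdm6a had no peak at the annotated ends, but its listed start lies inside the gene and was covered by an M6 peak of 29 tags (−log10 q 14.1) with no W2 peak. Kdm6b had 6 M6 and 2 W2 peaks at its locus, and both W2 peaks overlapped M6 peaks inside the gene.

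REST and its corepressors split evenly. Rest, the repressor of neuronal genes, and Rcor2 had no peak in either library within 10 kb of the gene. Rcor1, the main CoREST scaffold, had 47 tags in M6 and 23 tags in W2, a ratio of 2.04 (1.22 to 3.53), at its start. Rcor3, a related scaffold, had 16 tags in M6 and 16 tags in W2, the lowest shared pileups of the list. Its −log10 q was 2.62 in M6 and 3.70 in W2, and 2 further M6 peaks at the locus were unshared, one of them at an end of Traf5 with a −log10 q of 14.7. Of the histone deacetylases, Hdac1 and Hdac2 work in CoREST and NuRD and Hdac3 in the NCoR corepressor. All 3 genes had an M6 gene-end peak (background 39.7%). Hdac1 had 32 tags in M6 and 17 tags in W2, a ratio of 1.88 (1.01 to 3.61). Hdac2 had 22 tags and Hdac3 24 tags in M6, with no W2 gene-end peak, and the Hdac3 peak was also at an end of Rell2.

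Among DNA methylation genes, 2 of 6 had a gene-end peak in M6 (background 39.7%) and 0 in W2 (0 to 45.9%, background 18.4%). Tet2, a methylcytosine dioxygenase, had 25 tags in M6 (−log10 q 8.35), 58 bp from its listed start and 0.804 kb from its annotated end. Tet3 had 31 tags (−log10 q 9.74) at its outer end in M6, and another peak at its listed inner start was present in both libraries, with 24 tags in M6 and 18 tags in W2. Tet1 had 2 weak M6 peaks inside the gene, of 15 and 16 tags, and none in W2. Dnmt1, the maintenance methyltransferase, had 5 M6 peaks, all inside the gene, and none in W2. The strongest, of 31 tags (−log10 q 11.4), spanned chr9:20952380-20953116 and held the whole inner start region printed above. That inner region has 33 CpG dinucleotides, a CpG observed over expected ratio of 0.910, and 2 GGGCGG matches. The outer start, which had no peak in either library, has 2 CpG dinucleotides, a ratio of 0.101 and no GGGCGG match. The summit of the strongest peak was nearest to neither, but 3 bp from another listed start inside the gene. The region of that start, chr9:20952930-20953229, is not printed and was covered in part by the peak. Its CpG ratio lies between those of the printed inner and outer regions. Dnmt3a, a de novo methyltransferase, had 3 M6 peaks away from its ends, the strongest with a −log10 q of 11.9, which lay 9.61 kb outside its annotated end and 15033 bp from the nearest listed start. Dnmt3b, the other de novo enzyme, had no peak at its locus in either library.

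Among histone methyltransferases, 4 of 6 had a gene-end peak in M6 (background 39.7%) and 1 in W2 (background 18.4%). Setd2, which marks transcribed gene bodies, had 28 tags in M6 and 20 tags in W2, a ratio of 1.4 (0.761 to 2.62). Kmt2d, an enhancer methyltransferase, had the strongest M6-only peak among the members, with 36 tags and a −log10 q of 18.8. That peak lay at the stop end of Kmt2d and also at an end of Prkag1, and the start of Kmt2d had no peak in either library. Kmt2a, the MLL methyltransferase, had a pair of M6 peaks around its start (20 and 21 tags) and Kmt2c, the closest paralog of Kmt2d, had 1 of 17 tags, without W2 counterparts. Nsd1 and Nsd2 methylate histone H3 in active chromatin. Nsd1 had 3 M6 peaks away from its ends and none in W2, and Nsd2 had none in either library. The acetyltransferases Crebbp and Ep300, paralogous coactivators, had 19 and 22 tags in M6 and no W2 peak at either locus. For Ep300 the edge of the peak was inside the 1 kb window and its summit 1.01 kb from the start. Across all members, the M6 peak nearest to a gene end but outside the window was at the Chd4 locus. It lay at an end of Nop2, with its summit 1.18 kb from the stop end of Chd4.

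In SWI/SNF, gene-end peaks were present at 4 of 7 members in M6 (background 39.7%) and at 2 in W2 (background 18.4%). Smarca2 and Smarca4 encode the alternative ATPases, BRM and BRG1. Smarca2 had 22 tags in M6 and 34 tags in W2, a ratio of 0.647 (0.361 to 1.14), with a −log10 q of 5.92 in M6 and 13.2 in W2. It was the only shared member with fewer tags in M6, although its interval includes 1. The tags are unscaled, and the interval, which covers counting error only, lies below the median ratio of all genes with a shared pair. Of all 3846 genes with such a pair, 7.57% had fewer tags in M6 and 0.260% had a lower ratio than Smarca2. Smarca4 had 25 tags in M6 (−log10 q 9.0) and no W2 peak at its locus. With equal numbers of peaks neither ATPase gene had an M6 gene-end peak. Smarcc1, a core scaffold, had 28 tags in M6 and 16 tags in W2, a ratio of 1.75 (0.915 to 3.46). Arid1a, the DNA-binding subunit of the canonical complex, had 19 tags in M6 at its start and no W2 peak. Arid1b, its paralog, and Arid2, of the PBAF complex, had no gene-end peak but peaks away from the ends, 8 in M6 and 4 in W2 for Arid1b and 3 in M6 and 1 in W2 for Arid2. Smarcb1, a core subunit, had 2 M6 peaks and 1 W2 peak in its flank. Its shared flank peak, at an end of Derl3, was the strongest member peak away from a gene end in either library, with a −log10 q of 29.3 in M6 and 11.1 in W2.

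The CHD remodelers Chd1 and Chd4 had M6-only gene-end peaks of 22 and 24 tags. Chd4, the NuRD ATPase, also had a shared flank peak at an end of Nop2, with 27 tags in M6 and 18 tags in W2. Chd7, mutated in CHARGE syndrome in humans, had 4 M6 peaks away from its ends and none in W2. Ctcf, which encodes the insulator protein, had the weakest M6-only gene-end peak of the list, with 15 tags and a −log10 q of 2.80.

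Where both libraries had a gene-end peak, the pileup was higher in M6 at 9 of 11 members, equal at Rcor3 and lower at Smarca2. The median log2 ratio of M6 over W2 pileups was 0.49 for the members and 0.58 over the 3846 genes with a shared pair, of which 90.0% were higher in M6. The medians were 28 tags in M6 and 19 in W2 for the members. Only for Cbx8, Rcor1 and Hdac1 did the interval of the ratio lie above 1. The tags are unscaled, however, and all these intervals included the median ratio of all genes with a shared pair. Of all such pairs, 97.6% had a lower ratio than Cbx8, 88.6% than Rcor1 and 81.7% than Hdac1. Taking the fold over the local background in place of the pileup lowered the median log2 ratio to 0.29 for the members and 0.27 for all genes, and put Pcgf2 at −0.16 and Rcor3 at −0.38. The shared member peaks had a median width of 486 bp in M6 and 365 bp in W2, and 7 of 11 were wider in M6, against 90.6% of all genes.

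**Figure D3:**
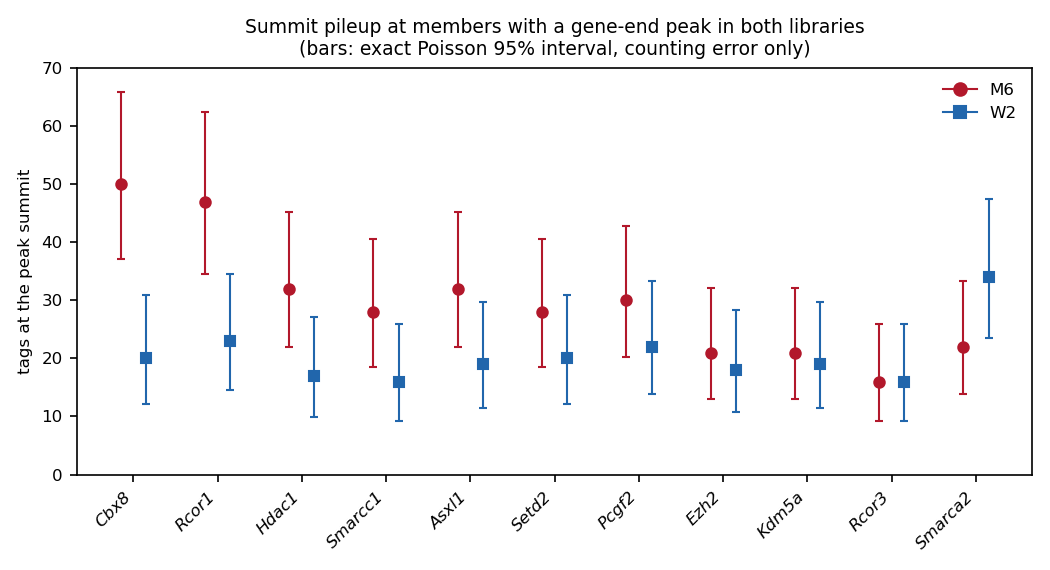
Tags at the peak summit for the 11 members whose ends held a peak in both libraries, M6 as red circles and W2 as blue squares, ordered by their ratio, with exact Poisson 95% intervals that cover counting error only. Cbx8 (50 in M6, 20 in W2) and Rcor1 (47 in M6, 23 in W2) stand apart on the left, and Smarca2 (22 in M6, 34 in W2) is the only member lower in M6.

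How strong the M6 peak was went with whether W2 had one. Of the 30 members open at an end in M6, 36.7% (19.9 to 56.1%) were also open there in W2, against 44.8% of all genes. A W2 peak accompanied 1 of 6 members (16.7%) with an M6 −log10 q below 5, 4 of 17 (23.5%) from 5 to 10, and 6 of 7 (85.7%) at 10 or more. Over all genes these shares were 10.9%, 26.6% and 72.7%. The exception among the 7 strongest was Kmt2d. M6-only members had a median pileup of 22 tags and members with a peak in both a median of 28 tags in M6. The 10 strongest M6-only members were Kmt2d, Tet3, Rnf2, Ezh1, Smarca4, Suz12, Tet2, Ep300, Chd1 and Crebbp, with −log10 q values of 6.98 to 18.8. The other 9 (Eed, Jarid2, Hdac2, Hdac3, Kmt2a, Kmt2c, Arid1a, Chd4 and Ctcf) had values of 2.80 to 6.36 and 15 to 24 tags.

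Counted by gene, the whole loci held 102 peaks in M6 and 27 in W2. These were 101 different peaks in M6 and 26 in W2, because the Cbx8 start peak also lies in the flank of Cbx2 and is counted for both genes here and in the counts by place that follow. At least 1 peak was found at 46 loci in M6 (background 59.1%) and at 23 in W2 (background 29.6%). More peaks in M6 than in W2 were counted at 37 of 50 members (background 44.4%), fewer at 0 (background 1.90%) and equal numbers at 13. Members are long genes, with a median locus of 81.6 kb against 37.2 kb for all genes. Per 100 kb, the members had 2.19 peaks in M6 and 0.580 in W2, against 1.61 in M6 and 0.523 in W2 for all genes. With equal numbers of peaks in the lists, the member loci held 24 peaks in M6 and 27 in W2. Of the M6 peaks, 34 were at a gene end, 41 inside the gene and 27 in the flank, where 17 of the 27 were at an end of another gene. In W2, 11 were at a gene end, 7 inside and 9 in the flank. Sharing was uneven: 11 of the 34 M6 gene-end peaks, 5 of the 41 inside peaks and 9 of the 27 flank peaks overlapped a W2 peak. Inside the genes, 36 of the 41 M6 peaks were without a W2 counterpart. These shares were not counted over all genes, and the M6 list held 22570 peaks against 5735 in W2. At the 122 other genes of the complexes, 39 of 93 M6 gene-end peaks, 14 of 65 inside peaks and 17 of 41 flank peaks overlapped a W2 peak. Whether sharing by place at the members differs from that of all genes was not tested.

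**Figure D4:**
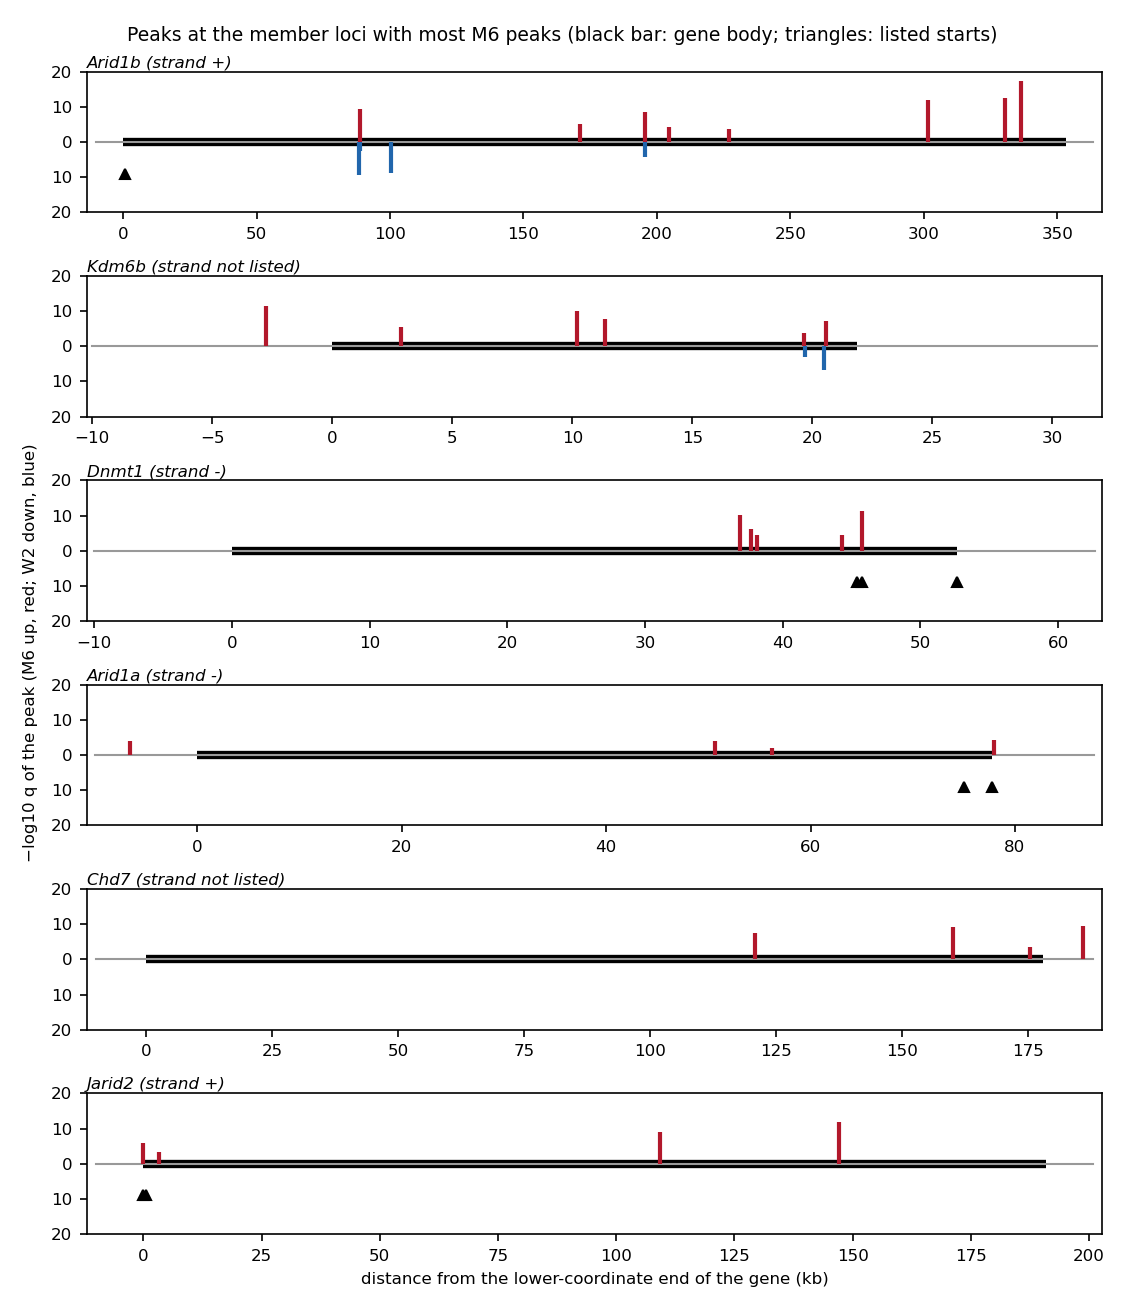
Peaks at the 6 member loci with most M6 peaks, by distance (kb) from the lower-coordinate end of the gene; bar height is the −log10 q, M6 upward in red and W2 downward in blue, black bars are gene bodies and triangles listed starts. Arid1b had 8 M6 and 4 W2 peaks, and Dnmt1, Arid1a, Chd7 and Jarid2 had M6 peaks alone.

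Arid1b, the longest locus shown, had the most peaks in both libraries. Its strongest M6 peak inside the gene had a −log10 q of 17.3 and no W2 overlap. Both W2 peaks of the list without an M6 overlap were also in Arid1b. One, at chr17:5082391-5082726 (−log10 q 9.35), lay 25 bp from an M6 peak, and the other, at chr17:5094713-5094965 (−log10 q 8.78), lay 11250 bp from the nearest M6 peak. Kdm6b followed with 6 peaks in M6 and 2 in W2, and Dnmt1 with 5 in M6 and 0 in W2. Jarid2, Arid1a and Chd7 had 4 each in M6 and 0 in W2.

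Of the 20 members with no gene-end peak in either library, 16 had at least 1 peak at the locus in M6 and 8 in W2. Rest, Rcor2, Dnmt3b and Nsd2 were without a peak at the locus in both. For Dnmt1 and Kdm6a an M6 peak covered a listed start that lies inside the annotated gene, so that the ends of the gene miss it. Counting gene ends or listed starts together, a choice made after these loci had been seen, gave 32 members in M6 and 12 in W2, against 42.8% of all genes in M6 and 19.8% in W2. Strand and listed starts were matched for 39 of the 50 members. With listed starts alone, 26 of these 39 (66.7%) had a peak in M6 and 9 (23.1%) in W2, against 42.3% in M6 and 19.9% in W2 of 17492 genes.

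The start regions of the members were rich in CpG, a property that the choice of genes did not use. The median CpG observed over expected ratio in the 300 bp region was 0.876 for the 39 members and 0.577 over 17492 genes. Peaks over such regions were themselves more common where CpG was high: among all genes, M6 peaks covered 2.39% of regions with a ratio below 0.3, 26.3% from 0.3 to 0.6, 62.5% from 0.6 to 0.9 and 64.5% from 0.9, and W2 peaks covered 0.714%, 10.4%, 31.8% and 30.7% of the same classes. At a ratio of at least 0.6, an M6 peak covered 19 of 36 members (52.8%, 35.5 to 69.6%) and a W2 peak 8 of 36 (22.2%, 10.1 to 39.2%), against 63.2% in M6 and 31.4% in W2 of all such regions. Within this class the members' share thus lay below that of all genes in both libraries, by less than its counting error. Over all listed starts regardless of CpG it lay above, at 51.3% of members in M6 and 23.1% in W2, against 36.5% in M6 and 17.5% in W2 of all genes. The part of CpG content in the members' counts was not tested further.

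**Figure D5:**
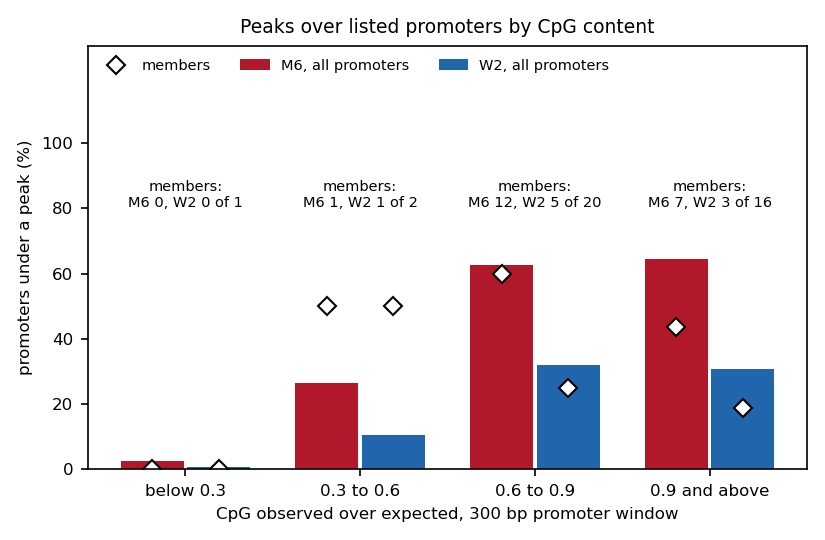
Share (%) of 300 bp start regions under a peak by CpG observed over expected ratio, as bars for all 17492 genes with a listed start (M6 red, W2 blue) and as diamonds for the 39 members. In the 2 upper classes the diamonds lie below the bars in both libraries.

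GGGCGG occurred in 87.2% of the member regions and 46.3% of all, and in 72.7% of all regions under an M6 peak. CCAAT occurred in 28.2% of the members and 39.2% of all, CCGGAAG in 7.69% and 11.9%, TGACGTC in 7.69% and 3.98%, TTGGCGC in 5.13% and 3.22%, and TGANTCA in 5.13% and 7.03%. The 3 members with CCGGAAG were among the 9 with a peak in both libraries, and over all genes CCGGAAG occurred in 22.1% of regions under an M6 peak and in 5.93% of regions under no peak. GGGCGG occurred in 88.2% of the M6-only members and in 84.6% of the members with no gene-end peak. In the printed regions, Ezh2 has 3 CCAAT matches and 1 TTGGCGC match but no GGGCGG, and Smarca2 is the one printed region with a TGANTCA match. Such matches are a description of letters and say nothing about binding.

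The other genes of the same complexes, 122 in all, were set beside the members. Of these, 78 (63.9%, 54.7 to 72.4%) had a gene-end peak in M6 (background 39.7%) and 39 (32.0%, 23.8 to 41.0%) in W2 (background 18.4%). A peak was present in both libraries at 38 (background 17.8%), in M6 only at 40 (background 21.9%) and in neither at 43 (background 59.7%). Strong gene-end peaks of M6 that overlapped none of W2 were at the deacetylase genes Hdac6 (−log10 q 15.3, 28 tags) and Hdac5 (13.0, 28 tags) and at the acetyltransferase gene Kat8 (11.6, 27 tags). Kat6b, another acetyltransferase gene, was M6-only by the 1 kb window alone: its peak of 63 tags in M6 (−log10 q 32.6) overlapped a W2 peak of 34 tags (13.9) that lay just inside the gene. Among the other deacetylase genes, 5 of 8 had a gene-end peak in M6 and 0 in W2 (0 to 36.9%). Hdac4 is among the 5 through a weak M6 peak of 13 tags at its outer end. At its listed start inside the gene a peak was shared, with 51 tags in M6 (−log10 q 28.1) and 22 tags in W2 (6.81). Among the other CHD and NuRD genes 6 of 12 had one in M6 and the same number in W2. The shares of all genes were 39.7% in M6 and 18.4% in W2. Where the M6 peak had a −log10 q of 10 or more, 74.4% of these other genes also had one in W2, close to the 72.7% of all genes.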

How the data were processed

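ATAC-seq peak lists of 2 libraries, M6 and W2, were used as deposited, 1 per time point and nothing pooled. A digitonin-containing buffer released the nuclei and a commercial kit tagged them, per the labels' protocols. The tools were deepTools, SAMtools 1.4, Bowtie2 and Trim Galore 0.5.0, and the build was mm10, per the submitters' processing notes. The peak caller, its threshold and duplicate handling were not given in the sources used here. For each peak the authors deposited a score (not used further), a fold (a linear ratio of summit over local background), a −log10 p, a −log10 q and a summit offset. Within each list these values described, ranked and filtered the peaks.

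The members and gene lists were chosen with earlier results of these data known. Peaks off chromosomes 1 to 19, X and Y were left out (24 in M6 and 30 in W2). Pileup and background were solved from the fold, as (pileup + 1)/(background + 1), and the −log10 p, as a Poisson tail, and a pileup was accepted as whole when its p came within 0.001 of the deposited value on the −log10 scale. The step was tested on simulated data. Genes came from a RefSeq table of GRCm38.p6 without strand, and start regions of 300 bp from a RefSeq promoter table that matched 39 members. For a gene with several listed starts, the one nearest its annotated 5′ end was used. Peaks sharing at least 1 bp were called shared. Pileup pairs are the strongest overlapping pair of gene-end peaks. With 1 library per time point no test was made; shares carry exact binomial (Clopper-Pearson) and pileups exact Poisson 95% intervals. All members were accounted for by class, with values in full for those with no gene-end peak, the 10 strongest M6-only members, the extremes of the shared pileups, the loci with most peaks, and the strongest M6-only and every W2-only other gene of the complexes; the remaining members' values were added to these. Some of the other genes named by this rule are not reported here. Python 3.11.15, NumPy 2.4.6, pandas 2.3.3, SciPy 1.17.1 and Matplotlib 3.10.9 were used. Alternatives varied the window, peak strength, list length, start annotation, neighbouring genes, locus margin and pileup scale.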

Additional observations from a re-analysis of the deposited data

How the results depend on the processing

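Holding both lists to 5735 peaks turned the difference in gene-end counts, M6 minus W2. For the members it became −4 by −log10 q and by fold (7 members in M6), and for all genes −429 (3604 genes in M6) by −log10 q and −750 (3283 genes in M6) by fold. PRC2, PRC1 and SWI/SNF each turned to −1 under both rankings. The locus counts turned to −3 for the members (24 in M6) and −767 for all genes (7015 in M6). M6 peaks with a −log10 q below 10.8 are absent from the ranking by −log10 q by construction, while W2 peaks were kept down to 1.47. Leaving out peaks at another gene's end left 26 members in M6 and 9 in W2. Of all genes it left 6269 (28.6%) in M6 and 2656 (12.1%) in W2. Counting gene bodies alone gave 64 member peaks in M6 and 12 in W2 (16732 in M6 and 4920 in W2 over all genes). Margins of 50 kb gave 191 in M6 and 62 in W2, a difference of 129. Over all genes they gave 50873 in M6, 17205 in W2 and a difference of 33668. With a −log10 q of at least 5, 72 M6 and 17 W2 peaks were left at the member loci, beside 17695 in M6 and 5699 in W2 over all genes. Scaling pileups by the lowest background gave a median log2 ratio of 0.65 for the members and 0.74 for all genes, and the fold 0.29 and 0.27, with Pcgf2 at −0.16. Over the window, summit, strength, start and neighbour settings, the members numbered 24 to 35 in M6 and 8 to 15 in W2, with M6 higher in each. These counts are out of 50 members, or out of 39 with listed starts alone. All genes were also higher in M6 in each, with 28.6 to 44.3% in M6 and 12.1 to 20.6% in W2. No paired analysis was possible because each time point had 1 library, and for the same reason no replicate could be left out. Unknown read depth limits every comparison of peak numbers.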
